A study of Mus musculus with 4 samples.

Results

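The miR-297, miR-466, miR-467 and miR-669 families are 4 groups of microRNAs (miRNAs) known from mouse and rat, whose mature sequences are built largely from UG and CA repeats. They were taken from the deposited miRNA table by name: every mature miRNA whose name begins with 1 of these 4 family numbers was a member. This gave 78 of the 1078 mature miRNA names of the table, on 146 of its 1195 entries, since the table lists a mature miRNA separately for each hairpin it can come from. Of the 78 names, 16 share 7 mature sequences, so the members below are 69 distinct sequences of the 1064 in the table. Names that share a sequence are written together, as in miR-669a-3p/miR-669o-3p.

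A miRNA is cut from a hairpin in a longer transcript by Drosha and Dicer, and the arms of the hairpin are called 5p and 3p. Bases 2 to 8 of the mature strand, the seed, do most of the pairing with target mRNAs, so a shift of the 5' end by a single base gives a different seed. Most hairpins of these families lie as tandem copies inside an intron of Sfmbt2, a Polycomb-related gene that is imprinted in the mouse placenta, and the cluster is best known from trophoblast and embryonic stem cells.

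Small RNA from 4 cell populations of C57BL/6J mice was sequenced by Solexa, and the design asks how the miRNA set differs along dendritic cell (DC) development. The HSC library came from lineage-negative, c-Kit+ Sca1+ bone marrow cells, the sort used for haematopoietic stem cells. The 3 DC libraries started from femur marrow of mice 5 to 6 weeks old and share GM-CSF at 10 ng/mL and IL-4 at 1 ng/mL: immature cells (imDC) had only these and were taken on day 6, while mature cells (maDC) were also given LPS, a bacterial activator, at 10 ng/mL after day 4 and were bead-purified by CD11c on day 8. Regulatory cells (DCreg) were maDC that then spent 7 days or more on endothelial-like stromal cells of the spleen before CD11c selection was repeated. Each population had 1 library, so no difference below has a replicate check or a p-value, and the intervals cover counting error only. Reads were amplified with no molecular identifiers and may be copies of 1 molecule, in which case the intervals are too narrow.

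The sequences shown first are those on which the results turn, as the deposited table gives them (T for U), 5' to 3', with the seed in capitals. miR-669c-5p is shown because it was the most abundant member in every library.
miR-669c-5p: aTAGTTGTgtgtggatgtgtgt
The next 4 are 5p strands of miR-467 hairpins, shown because they are nearly the same molecule and yet had different levels across the libraries.
miR-467a-5p: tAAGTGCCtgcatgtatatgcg
miR-467c-5p: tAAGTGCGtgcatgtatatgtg
miR-467d-5p: tAAGTGCGcgcatgtatatgcg
miR-467e-5p: aTAAGTGTgagcatgtatatgt
The CA-rich 3p strands below had many reads and little deposited score, apart from miR-466d-3p, which differs from miR-466a-3p/miR-466e-3p at the 3' end.
miR-669a-3p/miR-669o-3p: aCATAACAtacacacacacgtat
miR-467d-3p: aTATACATacacacacctacac
miR-466a-3p/miR-466e-3p: tATACATAcacgcacacataaga
miR-466d-3p: tATACATAcacgcacacatag
The last is shown because most of its reads did not lie in any hairpin of the families.
miR-466g: aTACAGACacatgcacacaca

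The repeat shared by the families was plain in these sequences. Of the 30 members named as 5p, 24 held TGTGTG, and of the 28 named as 3p, 21 held ACACAC (given strand only). Of the 995 other miRNAs of the table, 1.21% held TGTGTG and 0.704% held ACACAC. The 69 members had 41 different seeds. A seed was shared by at least 2 members in 14 cases, which covered 42 members. The most shared was TATACAT, with 7 members that included miR-467d-3p, followed by ATACATA, with 5 that included miR-466a-3p/miR-466e-3p, miR-466d-3p and the 3p strand of miR-297. Only 2 of the 41 seeds also occurred outside the families in the table: that of miR-467a-5p, AAGTGCC, is also the seed of miR-290-3p and miR-292-3p from the embryonic stem cell cluster, and ATGTGTG is also that of miR-1187. Counting positions from 1 at the 5' end, miR-467a-5p and miR-467d-5p differ by C8G and T9C, and miR-467a-5p and miR-467c-5p by C8G and C21T. The seeds of the c and d strands are thus the same, and that of the a strand differs at its last base.

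All 80 hairpins that the table names for the members were found by name in the GENCODE M21 annotation (GRCm38), and 70 of them lie in intron 10 of a 23-exon transcript of Sfmbt2, on chromosome 2. With 1 more family hairpin that the table lacks, the annotation places 71 of 81 there, between 10466663 and 10518279, a stretch of 51.6 kb on the + strand, which is also the strand of Sfmbt2. The exon before it ends at 10461472 and the next begins at 10523945. The other 10 hairpins are on other chromosomes, such as that of miR-466i in an intron of Cdk13 (chr13:17747473-17747593), on the strand opposite to the gene. The copies are so alike that 40 member sequences are found in 1 hairpin only, 19 in 2 to 4 hairpins and 10 in more than 4, up to 14 hairpins for miR-669a-5p/miR-669p-5p. The authors' own build was not stated in the labels or headers.

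The labels were first checked against miRNAs that mark such cells. miR-142-5p, of all blood lineages, stood between 9377 and 18959 ppm of the deposited values in the 4 libraries, and miR-142-3p of the same hairpin at 1133 ppm in HSC, with 861, 366 and 94.6 ppm in the imDC, maDC and DCreg libraries. Of 4 miRNAs known from HSC and progenitors, miR-196b-5p and miR-126-3p were highest in HSC, at 251 and 49.2 ppm against at most 33.7 and 1.90 ppm elsewhere. The other 2 were high in DCreg too: miR-10a-5p stood at 2193 ppm in HSC and 2042 in DCreg, and miR-99a-5p at 175 in HSC and 345 in DCreg, against at most 1018 and 29.7 in the remaining libraries. miR-155-5p, induced on DC activation, stood at 47.6 ppm in HSC and 2609, 1651 and 141 ppm in imDC, maDC and DCreg. The HSC library also held 9189 ppm of the red cell miRNA miR-451, against at most 16 ppm in the other 3. Lymphoid miR-150-5p stood at 914 ppm in HSC, against at most 17.1 ppm elsewhere. Myeloid miR-223-3p was highest in HSC, at 3438 ppm, while myeloid miR-21-5p was lowest there, at 19982 ppm. Of the 3 stromal miRNAs, miR-143-3p stood at 386 ppm in HSC, 12.9 in imDC and 40.9 in maDC, with 155 in DCreg. In the same order miR-145-5p stood at 29.6, 0.381, 2.68 and 9.90 ppm and miR-199a-3p at 622, 46.5, 119.5 and 79.6 ppm, so that from maDC to DCreg the first 2 were higher and the last was lower. Their part in the values below was not tested.

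Levels are given in 2 ways throughout. Where 4 values stand in a row without library names, they are in the order HSC, imDC, maDC and DCreg. The deposited score is the authors' whole-number value for a miRNA, scaled here to parts per 1000000 (ppm) of the library's summed score. The recount is the number of reads in the deposited list of unique sequences that match a mature sequence, scaled to ppm of all reads so placed. The lists hold between 4904897 reads (DCreg) and 6572858 (maDC), of which 80.2 to 84.0% were placed on a miRNA of the table.

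The families together were a small part of the miRNA pool, largest in imDC by reads and in maDC by score when scaled to the library's miRNA total. The members' scores summed to 3101, 5037, 4982 and 1403, which is 734, 959, 1113 and 515 ppm. Their recounted reads numbered 3820, 6041, 4199 and 1622, which is 735 ppm (exact Clopper-Pearson 95% interval 712 to 759), 1147 (1118 to 1176), 760 (737 to 784) and 412.4 (393 to 433.02). On these totals DCreg was lowest in both sources, HSC was next by score and within counting error of maDC by reads, and imDC and maDC changed places. The order depends on the scaling: of 5 scalings, HSC was lowest under 3 and DCreg under 2 by score, while by reads DCreg was lowest under 4 and imDC under 1. The highest library was maDC under 4 and imDC under 1 by score, and maDC under 3 and imDC under 2 by reads. In bulk libraries such as these, fewer cells that make a miRNA and less of it per cell cannot be told apart. Above the floor of 3 units were 36, 42, 23 and 17 of the 69 members by score, and 39, 44, 32 and 29 by reads. At 10 ppm or more in at least 1 library were 10 members by score and 18 by reads, and 3 members had no read in any library.

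**Figure D1:**
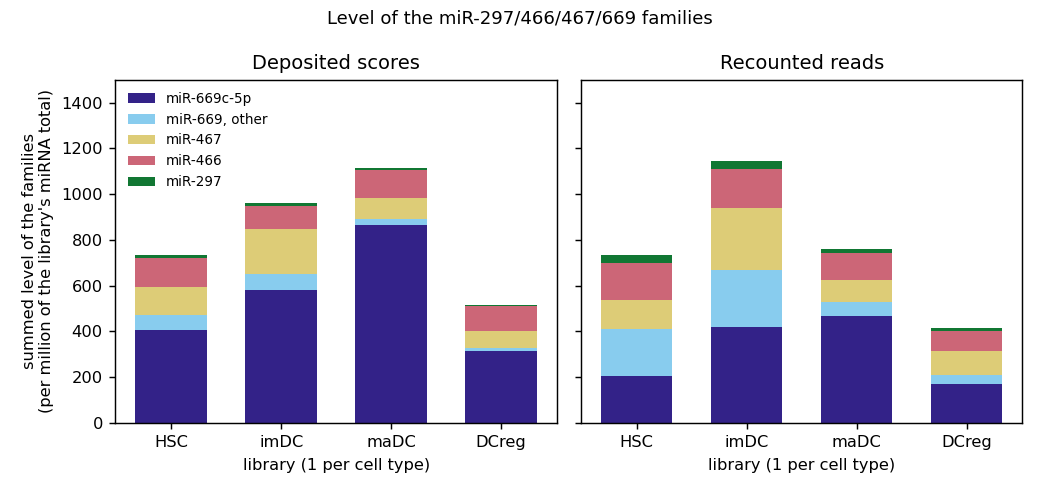
Summed level of the families in each library (stacked bars, per 1000000 of the library's miRNA total), by deposited score on the left and by recounted reads on the right, with miR-669c-5p drawn apart from the rest of its family. The miR-669c-5p piece is the tallest in every bar, in HSC by reads only just, and the deposited sum is highest in maDC while the recounted sum is highest in imDC.

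The miR-669 family held the most reads of the 4 in every library. Its share of member reads was 55.8% in HSC, 58.3% in imDC and 69.6% in maDC, with 50.6% in DCreg. These shares, unlike levels in ppm, do not depend on how libraries are scaled against each other. The miR-467 family held 17.4, 23.4, 12.6 and 25.3% and miR-466 held 21.7, 15.0, 15.5 and 21.7%. The smallest family, miR-297, held 5.13, 3.28, 2.24 and 2.47%. By deposited score miR-669 held 63.6 to 79.99% and miR-297 no more than 1.68%. The order of the families was the same by score and by reads except in DCreg, where miR-467 was above miR-466 by reads and below it by score.

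miR-669c-5p alone made up most of the deposited score of the families. It comes from 1 hairpin, Mir669c (chr2:10509296-10509404). Its score was 1718, 3047, 3879 and 850, and its recounted level was 206, 417, 469 and 170 ppm, with 1073 reads in HSC and 2591 in maDC. Thus imDC and maDC were high, and HSC and DCreg low. It took 28.1% of the members' reads in HSC (interval 26.7 to 29.5), 36.4% in imDC (35.2 to 37.6), 61.7% in maDC (60.2 to 63.2) and 41.2% in DCreg (38.8 to 43.7), and the intervals of the 4 libraries do not overlap. Among the 1064 sequences of the table its rank by reads was 93, 81, 54 and 78. The recounted level was 2.02-fold higher in imDC than in HSC (1.88 to 2.18), 1.12-fold higher in maDC than in imDC (1.06 to 1.19) and 2.76-fold lower in DCreg than in maDC (2.53 to 3.01). By score the same folds were 1.43, 1.49 and 2.78. Each of the 3 directions was the same under all 5 scalings of both sources. The 3p strand of the same hairpin, miR-669c-3p, had 1, 2, 1 and 1 reads, so nearly all reads of Mir669c came from its 5p arm.

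The reads of miR-669c-5p were mostly longer than its annotated form. The commonest was 24 nt long and extends the annotated strand by bases that the hairpin encodes.
miR-669c-5p, 24 nt form: aTAGTTGTgtgtggatgtgtgtat
miR-669c-5p, annotated 22 nt form: aTAGTTGTgtgtggatgtgtgt
The 24 nt form made up 62.6% of miR-669c-5p reads in HSC (59.7 to 65.5), 65.6% in imDC (63.5 to 67.6), 60.1% in maDC (58.2 to 62.0) and 39.8% in DCreg (36.0 to 43.6). The annotated form made up 19.3% in HSC (16.97 to 21.8), 13.5% in imDC (12.1 to 15.0) and 20.5% in maDC (18.9 to 22.1), with 40.4% in DCreg (36.6 to 44.2). DCreg was therefore the library in which the annotated form was as common as the longer one. The 5' end, and with it the seed, was the annotated one in 98.8 to 99.9% of these reads. Over all members, reads of 24 nt or longer made up 21.1%, 29.6%, 43.3% and 20.2%, against 3.48 to 6.86% for the other miRNAs of the table. Most of these long reads were miR-669c-5p. It alone had 703, 1554, 1647 and 290 reads of 24 nt, among 3820, 6041, 4199 and 1622 member reads. The share in the other members was not computed separately.

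**Figure D2:**
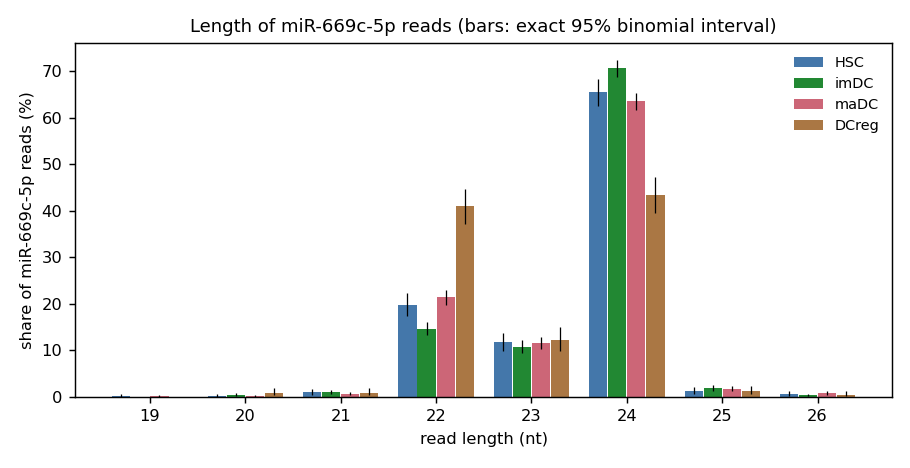
Share of miR-669c-5p reads (%) at each read length (nt) in each library, with exact 95% binomial intervals as black lines. The 24 nt bar is the tallest in HSC, imDC and maDC, and in DCreg the 22 nt and 24 nt bars are of similar height.

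The second most frequent member by reads over the 4 libraries together was miR-669a-3p/miR-669o-3p, whose sequence is held by 12 hairpins. In maDC miR-466g had more reads, and in DCreg both miR-466g and miR-467d-3p did. miR-669a-3p/miR-669o-3p had 841 reads in HSC, 864 in imDC and 197 in maDC, with 94 in DCreg. Thus HSC and imDC were high, and the LPS-treated cells and those derived from them low. Its deposited score was 82, 82, 14 and 2. The recounted level in imDC and HSC differed by less than the counting error (1.01-fold, 0.921 to 1.12). It was 4.60-fold lower in maDC than in imDC by reads (3.93 to 5.40) and 4.99-fold by score, opposite in direction to miR-669c-5p of the same family. The direction in maDC was the same under all 5 scalings of both sources, but the size was not. Under other scalings it stood at up to 0.612 of imDC by reads and 0.327 by score. The 23 nt annotated form and a 21 nt form shared most of its reads: the shorter held 40.1%, 19.7%, 25.4% and 59.6%. Its usual partner on the other arm, miR-669a-5p/miR-669p-5p, is in 14 hairpins and had 79, 184, 55 and 20 reads against scores of 0, 9, 0 and 0. The remaining named strands of the family were rarer. miR-669l-5p had 24, 47, 27 and 4 reads, and miR-669o-5p 25, 53.5, 17 and 9, where a fraction stands for reads divided among equal matches.

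The miR-467 5p strands were highest in imDC, but to different degrees, although any pair of the a, c and d strands differs at only 2 positions. Against maDC, the direction of miR-467c-5p turned under 2 other scalings of the reads and that of miR-467e-5p under 3 of the reads and 3 of the score. miR-467a-5p, present in 11 hairpins, had 55 reads in HSC, 383.5 in imDC and 34.5 in maDC, with 44 in DCreg. The imDC level was 6.88-fold that of HSC (5.18 to 9.31) and 11.7-fold that of maDC (8.33 to 17.3), and the other 3 libraries lay between 6.25 and 11.2 ppm. Its deposited score was 3, 46, 0 and 1. miR-467d-5p, from 1 hairpin (chr2:10507630-10507714), had 104, 228, 30 and 51 reads and scores of 145, 321, 41 and 58. Its lowest library was maDC, 7.97-fold below imDC by reads (5.43 to 12.1) and 6.67-fold by score, and it was 2.39-fold higher in DCreg than in maDC (1.49 to 3.88; 2.32-fold by score). miR-467c-5p, from 1 hairpin (chr2:10473931-10474027) and with the seed of miR-467d-5p, had 94, 276, 107 and 38 reads. It was 2.90-fold higher in imDC than in HSC (2.28 to 3.70), and its lowest library was DCreg instead, 2.00-fold below maDC (1.37 to 2.98). miR-467e-5p (chr2:10505721-10505807) varied least, at 20.4, 34.4, 22.99 and 11.7 ppm by reads. The c and d strands, which share a seed and an intron, thus went opposite ways between maDC and DCreg, under all 5 scalings of both sources.

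The 5' ends of the c and d strands were not fixed. Reads that start 1 base upstream of the annotated end made up 48.1, 57.0, 66.7 and 49.0% of miR-467d-5p reads and 34.0, 30.4, 43.9 and 42.1% of miR-467c-5p reads. The commonest such read of each is shown because its seed is not the annotated one.
miR-467d-5p, 1 base upstream: aTAAGTGCgcgcatgtatatgc
miR-467c-5p, 1 base upstream: aTAAGTGCgtgcatgtatatgt
Their seed is TAAGTGC, where the annotated strands have AAGTGCG. That is the annotated seed of another member, miR-467b-5p, whose sequence is that of miR-467a-5p begun 1 base upstream. It had 9, 58.5, 2.5 and 9 reads, and because such reads have a name of their own, the 5' end of miR-467a-5p is not compared here with those of the c and d strands. Over all members but miR-669c-5p, reads with a moved 5' end made up 22.5%, 23.1%, 25.7% and 26.2%. The 3p strand of miR-297, miR-297a-3p/miR-297b-3p/miR-297c-3p, was singled out after its values were seen: it had 187, 156, 85 and 36 reads, of which only 9.09, 17.9, 9.41 and 2.78% began at the annotated base. Its commonest read began 1 base upstream.
miR-297a-3p, 1 base upstream: aTATACATacacacatacccat
This form has the seed TATACAT, that of miR-467d-3p, and made up 60.4% of the strand's reads in HSC and 60.3% in imDC.

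On the 3p side, miR-467d-3p was nearly level across the libraries in ppm. It had 216 reads in HSC, 208 in imDC and 171 in maDC, with 153 in DCreg. That is 0.949-fold in imDC over HSC (0.782 to 1.15), and 1.26-fold in DCreg over maDC (1.00 to 1.57). In maDC it stood at 0.785 of imDC (0.637 to 0.965), and at up to 2.21 under other scalings. Its deposited score was 2, 2, 1 and 0. The balance of the arms, which needs no scaling between libraries, differed from library to library: 5p strands held 43.6% of member reads in HSC (42.0 to 45.2), 64.5% in imDC (63.3 to 65.7), 72.9% in maDC (71.5 to 74.2) and 56.3% in DCreg (53.8 to 58.7). The deposited scores gave the 5p side 74.6, 85.2, 87.0 and 74.6%. Much of this was miR-669c-5p: without it, 5p strands held 21.6% of the reads in HSC (20.03 to 23.1), 44.2% in imDC (42.6 to 45.8), 29.2% in maDC (27.01 to 31.5) and 25.6% in DCreg (22.9 to 28.5), so that imDC and not maDC was highest. By score these shares were 42.95, 62.6, 41.3 and 35.6%.

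In the miR-466 family the 3p strands together held the most reads in every library. The single member with most reads over the 4 libraries was miR-466g, named without an arm, at 750. By score the members without an arm in their name led in DCreg, at 158 against 138 for the 3p strands. miR-466a-3p/miR-466e-3p had 210, 205, 65.3 and 43.8 reads, high in HSC and imDC and low in maDC and DCreg, against deposited scores of 4, 3, 0 and 0. It was 3.29-fold lower in maDC than in imDC (2.49 to 4.44), but stood at up to 0.853 of imDC under other scalings of the reads. miR-466d-3p (chr2:10511967-10512062) had 139, 90.3, 27.3 and 29.8 reads and scores of 128, 92, 21 and 18. Of its reads, 63.3, 79.9, 65.2 and 87.2% were whole in a family hairpin, and some of those fit other hairpins too. miR-466d-3p was 3.46-fold lower in maDC than in imDC by reads (2.25 to 5.59) and 3.73-fold by score. Under other scalings it stood at up to 0.812 of imDC by reads and 0.437 by score. miR-466f-3p went the other way between the sources: its score was 115, 144, 217 and 98, but only 21.5, 29.5, 16 and 11 reads were placed on it, or 7.36 score units per read. The 5p partners miR-466a-5p and miR-466e-5p had a score of 0 in every library.

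Among the 10 members at 10 ppm or more by score in imDC or maDC, miR-466g alone was at least 2-fold higher by score in maDC, and the table gives it no arm. Its score was lowest in imDC, at 139, and highest in maDC, at 260, and its reads were 187, 145, 268 and 150, so score and reads lay close together here. It was 1.76-fold higher in maDC than in imDC by reads (1.44 to 2.17) and 2.19-fold by score. However, only 6.42, 9.66, 10.1 and 13.3% of its reads lay whole within a hairpin of the families, against 92.4 to 95.1% for miR-669c-5p. Of its commonest reads, 2 are shown because neither is found whole in any of the 81 hairpins.
miR-466g read with 54, 20, 42 and 20 copies: aTACAGACacatgcacacactt
miR-466g read with 7, 17, 34 and 47 copies: aTACAGACacatgcacacacca
The first was most frequent in HSC and the second in DCreg. Which locus they come from was not tested, as no genome sequence was used here. miR-466i-3p, also singled out after its values were seen, had 77.5, 97.5, 171 and 60 reads, of which 60.0, 56.4, 41.2 and 30.0% were whole in a family hairpin. Over all members the share was 86.4, 88.9, 85.0 and 80.9%. Only 2 reads over the 4 libraries fitted the miR-466i hairpin and no other family hairpin.

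**Figure D3:**
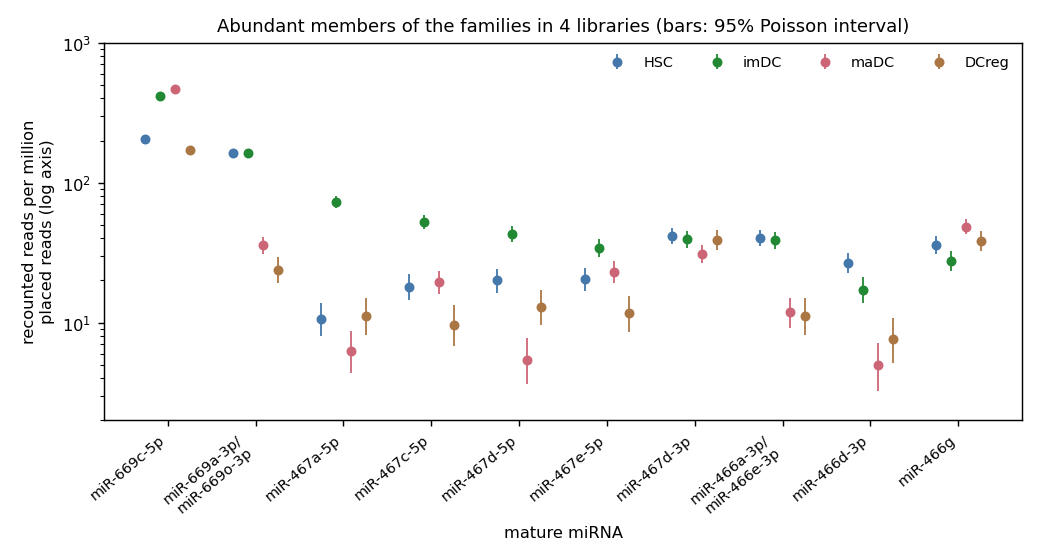
Recounted level (reads per 1000000 placed reads, log axis) of 10 abundant members in the 4 libraries, with 95% Poisson intervals for counting error. miR-669c-5p and miR-466g are highest in maDC and the miR-467 5p strands in imDC, while miR-669a-3p/miR-669o-3p and miR-466a-3p/miR-466e-3p are high in HSC and imDC only.

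The comparison of imDC with HSC asks what changes when marrow cells become DC. Members tested were those at 10 ppm in at least 1 of the 2 libraries, and a member was called at 2-fold or more, after 0.5 was added to each value. By score, 0 of 10 tested members were higher and 0 lower, where 26.8% of all 366 tested miRNAs were higher and 26.8% lower. By reads, 8 of 18 were higher and 0 lower, against 38.2% and 18.6% of 306 tested, so the share of higher members was near that of all miRNAs. The 8 included 4 miR-467 5p strands (a, b, c and d), miR-669c-5p and miR-669a-5p/miR-669p-5p. All 8 are 5p strands, among tested members of both arms. However, miR-467b-5p, miR-466c-5p and miR-669o-5p were tested only because they reached 10 ppm in imDC. With the trimmed mean, the recounted folds of miR-467a-5p and miR-467c-5p were 4.87 and 2.05. Those of miR-669c-5p, miR-467d-5p, miR-669a-5p/miR-669p-5p and miR-669o-5p were 1.43 to 1.63, below the 2-fold rule. The median log2 ratio of the tested members was 0.30 by score and 0.53 by reads, beside -0.04 and 0.40 for all tested miRNAs. Summed, the families stood 1.31-fold higher in imDC by score and 1.56-fold by reads (1.498 to 1.63). Without miR-669c-5p these were 1.16-fold and 1.38-fold (1.31 to 1.45). Under other scalings the recounted ratio of the whole sum ran from 0.969 to 1.56, and that without miR-669c-5p from 0.857 to 1.38, so the direction of the sum was not fixed. The miR-467 family alone was 2.10-fold higher by reads (1.91 to 2.30), and 1.30-fold or more under each of the 5 scalings.

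The comparison of maDC with imDC spans LPS, 2 further days of culture and the CD11c selection, which cannot be told apart. By score, 1 of 10 tested members was higher and 5 were lower, against 10.4% and 46.3% of the 328 miRNAs tested. By reads, 0 of 18 were higher and 11 lower, against 3.23% and 62.4% of 279. The members' shares were thus close to those of all miRNAs in both sources. The 5 lower by score were miR-669a-3p/miR-669o-3p, miR-467d-5p, miR-467c-5p, miR-669o-5p and miR-466d-3p, and all 5 were among the 11 lower by reads. However, all of the 5 but miR-467c-5p were tested by score only because they reached 10 ppm in imDC. By reads this held for all of the 11 but miR-669a-3p/miR-669o-3p, miR-467c-5p and miR-466a-3p/miR-466e-3p. The direction of the 5 was the same under all 5 scalings by score. By reads that of miR-467c-5p turned under 2 of the scalings, reaching 1.04. The median log2 ratio was -0.88 by score and -1.67 by reads, beside -0.86 and -1.44 for all tested miRNAs. The summed ratio pointed in opposite directions: maDC stood at 1.16 of imDC by score and at 0.663 by reads (0.637 to 0.690). Without miR-669c-5p both were below 1, at 0.650 and 0.399 (0.376 to 0.423). Other scalings moved the recounted sum as far as 1.86 and that without miR-669c-5p as far as 1.12. Shares of the members' reads need no scaling: miR-669c-5p had a larger share in maDC and the miR-467 family a smaller one.

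DCreg were compared with the maDC they were made from. This comparison spans the stroma, 7 or more further days of culture and a repeated CD11c selection, which cannot be told apart. By score, 1 of 6 tested members was higher and 1 lower, against 23.7% and 28% of 304 miRNAs. By reads, 1 of 12 was higher and 2 lower, against 17.5% and 30.3% of 228. miR-467d-5p was the higher member in both sources. However, it was tested only because of its level in DCreg, 21.3 ppm by score and 13.0 by reads. In maDC it stood below the minimum for testing, at 9.16 ppm by score and 5.43 by reads. miR-669c-5p was lower in both sources, and miR-466i-3p by reads only. The median log2 ratio was -0.63 by score and -0.46 by reads, beside -0.25 and -0.38 for all tested. The summed level was 2.16-fold lower in DCreg by score and 1.84-fold by reads (1.74 to 1.95), and lower under all 5 scalings. Most of that was miR-669c-5p: without it the sum stood at 0.823 of maDC by score and 0.832 by reads (0.768 to 0.902), and at up to 1.08 and 1.07 when the 5 most abundant miRNAs were left out of the totals. Since imDC and maDC each serve in 2 comparisons, the 3 are not independent.

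Score and reads differed most for members with many hairpin copies. Over members with at least 20 reads in all, the median score per read was 1.29 for the 16 found in 1 hairpin, 0.353 for the 11 found in 2 to 4 hairpins and 0.0633 for the 9 found in more than 4. For the other miRNAs of the table it was 1.39. Members found in more than 4 hairpins therefore held 40.5, 34.5, 14.02 and 26.1% of the members' reads but 4.45, 3.85, 0.662 and 1.35% of their score. The labels and headers do not state how the authors gave reads with several matches to hairpins. The exceptions at 1 hairpin and at 3 hairpins were miR-466i-3p, with 0.0714 units per read, and miR-466f-3p, with 7.36. These 2 sequences share a run of bases, and a read that fits both went to the longer match or was divided. Their values are thus not independent. The hairpin Mir466i had only 2 reads of its own over the 4 libraries, against 90 for Mir466f-2 and 78 for Mir466f-3. Which hairpin the reads given to miR-466i-3p come from was not tested.

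**Figure D4:**
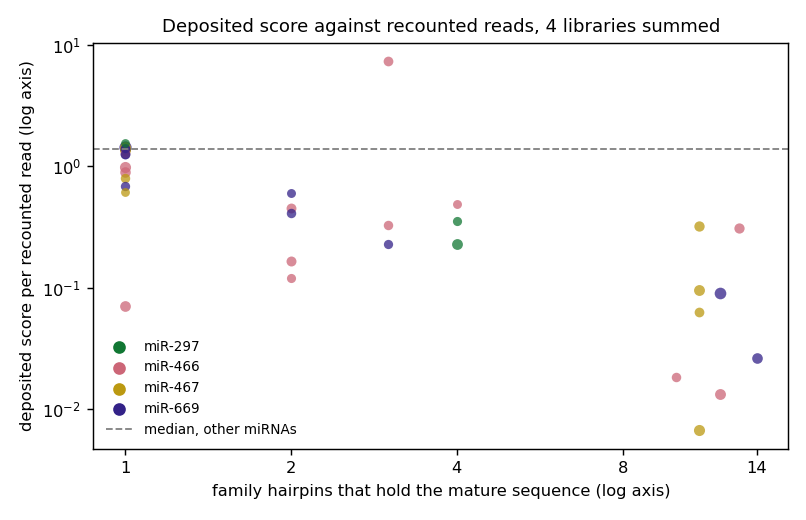
Deposited score per recounted read (log axis) against the number of family hairpins that hold the mature sequence (log axis), for members with at least 20 reads, 4 libraries summed; colour marks the family, and the dashed line is the median of other miRNAs. Members with 1 hairpin lie near the line, apart from 1 miR-466 point at 0.0714, and members with more than 4 hairpins lie below 0.33.

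Reads that fitted a family hairpin whole nearly all fitted those of the Sfmbt2 intron. Of 3280, 5330, 3559 and 1306 such reads of 18 nt or longer, 98.9%, 98.7%, 99.3% and 99.4% fitted hairpins of the intron only. The search covered just the 81 family hairpins, 71 of them in the intron, so a high share was likely from the start. Whether the reads also fit other places in the genome was not tested. Reads that fitted a single hairpin were 46.6, 56.6, 80.6 and 65.2% of the reads whole in a hairpin. Mir669c had 66.8, 67.3, 84.9 and 74.3% of these single-hairpin reads. The next hairpins, Mir467c and Mir467e, had 479 and 477 such reads over the 4 libraries against 6120 for Mir669c. A read of its own was found for 27, 28, 21 and 19 hairpins. Over the 4 libraries 50 of the 81 hairpins had none. Of these, 45 had reads that also fit other hairpins, so which of the copies were used cannot be told apart. The other 5 (Mir669k, Mir669g, Mir467f, Mir669n and Mir467g) had no such read in any library.

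**Figure D5:**
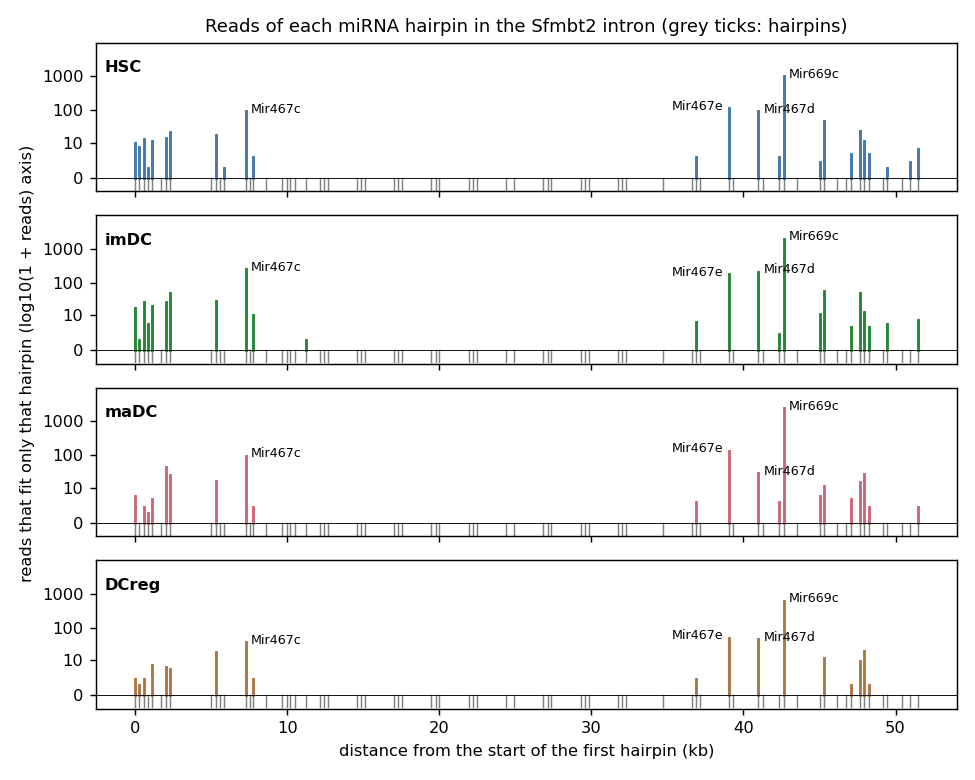
Reads that fit only 1 hairpin, drawn at each hairpin's distance (kb) from the start of the first hairpin of the intron, on a log10(1 + reads) axis, with 1 row per library and grey ticks for all hairpins. Mir669c, 42.6 kb along, is highest in each library, and most hairpins of the middle of the cluster have no read of their own.

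Other miRNAs with a related sequence or history were far rarer than the families. The 5 other miRNAs of the table with TGTGTGTG or ACACACAC summed to between 33.6 and 48.8 ppm by score in each library. The miR-290 to miR-295 cluster, which shares a seed with miR-467a-5p, reached at most 16.8 ppm, and 3.27 ppm by reads. The Dlk1-Dio3 cluster, another imprinted miRNA cluster, with 79 sequences in the table, stood at 51.8 ppm in HSC, 20 in imDC and 30.4 in maDC, with 51.0 in DCreg. The X-linked Fx-MIR cluster, with 21, reached at most 4.5 ppm.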

How the data were processed

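Members, lists and tests were chosen with earlier results of these data known. Per the labels' protocols, inserts of 18 to 30 nt were amplified for 12 cycles, reads of other known RNA classes were removed and the rest compared with miRBase release 19. The authors deposited a whole-number score for each mature miRNA and hairpin, called normalized counts per the file headers; its normalization was not stated in the labels or headers, so no count model was run. Score totals were 4226458 (HSC), 5251069 (imDC), 4475569 (maDC) and 2725948 (DCreg). Scores were summed over hairpins and over names that share a sequence, since the entries of 1 sequence held near-equal parts, although the plan named their mean; both are compared in the closing section. Each column was scaled to 1000000 (ppm).

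The authors also deposited for each library the unique sequences and their copy numbers, holding 6277096, 6554086, 6572858 and 4904897 reads. Reads were recounted here by exact match of at least 16 nt to the mature sequences, with the 5' end within 2 nt and at most 5 unmatched 3' bases; the longest match was taken and equal matches were divided. This placed 5198012, 5268866, 5523681 and 3932627 reads. Of members' reads, 4.26 to 11.8% had several equal matches. Hairpins were matched by name to GENCODE M21, and their sequences read from its transcripts.

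Only miRNAs at 10 ppm in 1 of the 2 libraries were compared, with a pseudocount of 0.5 and a 2-fold rule. Named members were the 6 of highest mean score level, the 3 largest folds each way per comparison, the 6 with most reads, the 3 with most and the 3 with fewest score units per read among members of at least 10 ppm mean score, and the other arms of all these. On simulated data the recount returned 76.8% of member sequences within 10% of the truth and 100% of member reads to the families. The fold rule was tried on simulated 4-fold changes with counting noise only, not on changes near 2-fold. It found 90.0% of them for imDC against HSC, 88.5% for maDC against imDC and 90.5% for DCreg against maDC (1064 miRNAs each). Folds by reads have exact conditional 95% intervals. A value of 0 allows up to 3 counts. Python 3.11.15, numpy 2.4.6, scipy 1.17.1 and matplotlib 3.10.9 were used. Alternatives covered the source of values, 4 other scalings, pseudocounts, level minimums and match rules.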

Additional observations from a re-analysis of the deposited data

Results flagged for a closer look

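Some reads lay whole within a hairpin of the families but matched no mature miRNA of the table, and so entered none of the comparisons. With no control library, they were set against the 3 counts that a value of 0 allows. The hairpin of Mir466q had a read of this kind with 44 copies in all, of which HSC had 3, imDC 15, maDC 24 and DCreg 2.
Mir466q read: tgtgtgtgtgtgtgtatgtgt
The hairpin of Mir297a-2 had 1 with 27 copies, of which 17, 6, 1 and 3 were in these libraries. The hairpin of Mir466f-1 had 1 with 12 copies, 6, 3, 2 and 1 in the same order. The Mir466q read is almost wholly TG repeat, and whether it comes from that hairpin was not tested.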

How the results depend on the processing

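By score, the ratio of the summed members in imDC over HSC stayed above 1 and that in DCreg over maDC below 1 under all 8 alternatives. The ratio in maDC over imDC turned to 0.663 with recounted reads, to 0.986 with the list's total reads as the scale and to 0.650 without miR-669c-5p, a choice made after seeing the data, as were the 5p shares without it; beyond the left-out member, the cause was not tested. Other scalings shifted the log2 ratios by score of maDC over imDC by 0.55 (trimmed mean of M-values) and 0.71 (median of ratios). The shift was 0.24 with the 5 most abundant miRNAs left out of the total and -0.23 with the list's total reads. With the trimmed mean the summed levels were 530, 809, 1376 and 684 ppm (HSC, imDC, maDC, DCreg) and the 3 ratios 1.53, 1.70 and 0.497, and 2 members were higher in imDC than in HSC and 3 higher in maDC than in imDC. With the median of ratios they were 588, 717, 1358 and 631 ppm, with ratios of 1.22 and 1.89 for the first 2 comparisons, and 3 members were higher and 3 lower in maDC than in imDC. Without the 5 most abundant miRNAs they were 1107, 1399, 1912 and 1164 ppm, with 1.37 for maDC over imDC and 0.609 for DCreg over maDC, and 1 member was higher in imDC and 2 in maDC. Against the list's total reads they were 494.02, 769, 757.97 and 286 ppm, with 1.56 and 0.377 for the first and the last ratio; 2 members were higher in imDC than in HSC, 0 in maDC and 0 in DCreg, and 3 were lower in DCreg. Without miR-669c-5p they were 327, 378.97, 246 and 203 ppm, with ratios of 1.16 and 0.823 for the first and the last. Recounted, the last 3 levels were 1147, 760 and 412.4 ppm, the first and last ratios 1.56 and 0.543, and 8 members were higher in imDC than in HSC, 0 higher and 11 lower in maDC than in imDC and 2 lower in DCreg than in maDC. With no level minimum 11 were higher and 6 lower in imDC, 2 higher and 24 lower in maDC, and 3 higher and 5 lower in DCreg. At 100 ppm only miR-669c-5p was tested, so 0 were higher or lower in maDC and 0 higher in DCreg. Counting each name on its own, the mean over shared names and pseudocounts of 1 and 5 moved none of these values beyond its interval or 1.5 times.

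The members' recounted reads were 3383, 5409, 3833 and 1431 with the 5' end exactly as annotated, and 4195, 6562, 4558 and 1786 with 1 mismatch allowed. With no unmatched 3' base they were 2357, 3469, 1550 and 899, with ratios of 0.415 (maDC over imDC) and 0.810 (DCreg over maDC). With only reads whole in a family hairpin, added after seeing the data, they were 3301, 5370, 3569 and 1312, with 0.634 for maDC over imDC. No recounted ratio changed direction under the match rules. Of 128 values of named members under alternatives, 126 had the direction of the fold by score and 110 lay within its interval. Only comparisons in which a member had been picked for a large fold by score were counted, so a shared direction was likely from the start. Folds by reads were not the base of this count, and several for maDC over imDC turned under other scalings, as given above. No paired analysis was possible because each cell type had 1 library and no replicate numbers are shared. Depth limits most members: 18 of 69 reached 10 ppm by reads in any library.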
